A study of Mus musculus with 35 samples.

Results

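The genes described here were 10 genes of the mouse oocyte, listed by symbol: *Zp1*, *Zp2*, *Zp3*, *Gdf9*, *Bmp15*, *Nlrp5*, *Ooep*, *Figla*, *Nobox* and *Oosp1*. Each symbol was mapped to the locus on which its reads had been counted, which gave 10 of the 55356 genes of the count table. RNA came from adult C57BL/6J mice, with no other genotype or treatment given, and was sequenced as 29 rRNA-depleted, strand-specific RNA-seq libraries. They fell into 10 groups by tissue and sex: ovary (labelled female gonad), testis (labelled male gonad), and the brain, cerebellum, heart and colon of females and of males. Male heart had 2 libraries and every other group 3. Full-length cDNA was also read on 6 Iso-seq flow cells, which enter here only through the transcript models made from them. The labels do not say which libraries come from separate animals, so the p-values measure the spread between libraries, which may be technical in part.

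The zona pellucida is the glycoprotein coat that a growing oocyte secretes around itself, and in the mouse it is built from ZP1, ZP2 and ZP3. GDF9 and BMP15 are growth factors that the oocyte secretes to act on the granulosa cells around it, whereas NLRP5 and OOEP belong to the subcortical maternal complex, a store of maternal protein under the oocyte membrane that early embryos need. FIGLA and NOBOX are transcription factors that act in oocytes, with FIGLA required for the zona genes and for the formation of primordial follicles, and OOSP1 is an oocyte secreted protein.

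Library totals ran from 11742417 to 36194255 counts with a median of 24403774, and the ovary libraries held 18035978, 24893580 and 28081608 counts. The ovary label was set beside markers of somatic ovarian cells. By edgeR, all 7 granulosa, all 4 theca and all 6 luteal cell markers were called higher in ovary than in the somatic tissues. The share of all genes called higher was 24.0%. In DESeq2, *Fshr* of the granulosa markers was not called (adjusted p = 0.0819). All 4 fat markers and 2 of 4 oviduct markers were also called higher by edgeR. Summed theca markers were at 484.2 to 799.6 CPM (counts scaled to the library total) in ovary and 1435 to 2045 CPM in testis. Summed luteal markers were at 6615 to 8755 CPM in ovary and 1054 to 1494 CPM in testis. The theca marker *Insl3* was counted on a locus joined with *Jak3*. Of 6 male germ cell markers, 1 was called, as lower, where 19.0% of all genes were. Their sum was 0.222 to 0.605 CPM in ovary and 0 to 16.9 CPM in colon, which is part of the somatic reference. Ovary replicate 1 stood apart from the other ovary libraries for many oocyte genes, as given below, and its summed level of the 4 fat markers was 33.6 CPM against 195.6 and 151.1 CPM in replicates 2 and 3. A heart library, female heart replicate 3, held 1576 CPM of the same fat markers against 0.123 to 5.55 CPM in the other heart libraries. Its summed levels of the 6 luteal and the 7 granulosa markers were also the highest of the heart libraries, at 70.0 CPM against 12.1 to 15.2 and at 8.79 CPM against 2.39 to 5.00. The luteal sum was mostly *Star* (41.4 CPM) and *Ptgfr* (26.1 CPM), with *Akr1c18* at 0.375 and *Lhcgr* at 0.0417 CPM, whereas the granulosa markers *Foxl2*, *Fshr* and *Cyp19a1* were at 0 there. The exons of *Star* share 675 bases with *Ash2l* and those of *Ptgfr* share 182 with *Gm43618*, both on the opposite strand. In bulk tissue, fewer cells of a type and less RNA per cell cannot be told apart.

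Of the 10 genes, *Gdf9*, *Bmp15* and *Nlrp5* were represented by Iso-seq transcripts, with 3, 1 and 2 transcripts, and the other 7 by ENSEMBL models. The zona genes lay on GRCm38 at chr19:10914287-10920632 (*Zp1*, minus strand), chr7:120126772-120145291 (*Zp2*, minus strand) and chr5:135980099-135988624 (*Zp3*, plus strand). *Bmp15* was at chrX:6314107-6320723 on the minus strand, *Nlrp5* at chr7:23385890-23441922 on the plus strand and *Ooep* at chr9:78376109-78378725 on the minus strand. *Figla* was at chr6:86016171-86020996 on the plus strand, *Nobox* at chr6:43303674-43309554 on the minus strand and *Oosp1* at chr19:11667460-11691150 on the minus strand. The *Gdf9* locus, chr11:53430530-53437900 on the plus strand, began 493 bases upstream of the GENCODE gene and is described last, because its exons overlap another gene. No other member shared exon bases with another gene.

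The sequences upstream of 4 of these genes are shown as examples, and motifs of the factor classes to which FIGLA and NOBOX belong can be read in them. Those of *Ooep*, *Figla* and *Oosp1*, also called higher in ovary, are not shown. FIGLA is a basic helix-loop-helix protein, a class that binds the E-box CANNTG, and NOBOX is a homeodomain protein that binds TAATTA and TAATTG. The table of RefSeq promoters used here (GRCm38.p6) held 7 of the 10 genes, with 2 entries for *Nlrp5*, and the promoters of *Zp1*, *Zp2* and *Gdf9* were not analysed here. The *Figla* entry and the second *Nlrp5* entry lay inside the counted loci of these genes. Each line holds the 250 bases before the RefSeq start, 5′ to 3′ on the strand of the gene, with matches in capitals.
Zp3 (chr5:135979855-135980104, plus strand): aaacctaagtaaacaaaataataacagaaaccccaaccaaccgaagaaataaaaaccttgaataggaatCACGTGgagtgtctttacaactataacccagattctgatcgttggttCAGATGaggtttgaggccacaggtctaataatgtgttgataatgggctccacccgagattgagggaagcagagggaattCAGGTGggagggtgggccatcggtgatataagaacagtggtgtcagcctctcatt
Bmp15 (chrX:6320725-6320974, minus strand): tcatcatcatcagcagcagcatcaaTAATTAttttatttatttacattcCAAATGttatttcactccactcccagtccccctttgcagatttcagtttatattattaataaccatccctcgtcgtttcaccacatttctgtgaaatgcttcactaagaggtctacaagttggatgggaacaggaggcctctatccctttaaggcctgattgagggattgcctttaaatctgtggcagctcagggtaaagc
Nlrp5 (chr7:23385639-23385888, plus strand): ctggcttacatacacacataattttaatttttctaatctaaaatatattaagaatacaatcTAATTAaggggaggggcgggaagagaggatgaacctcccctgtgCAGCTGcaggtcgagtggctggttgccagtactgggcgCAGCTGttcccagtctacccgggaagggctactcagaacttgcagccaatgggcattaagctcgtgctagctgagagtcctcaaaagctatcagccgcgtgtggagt
Nobox (chr6:43309555-43309804, minus strand): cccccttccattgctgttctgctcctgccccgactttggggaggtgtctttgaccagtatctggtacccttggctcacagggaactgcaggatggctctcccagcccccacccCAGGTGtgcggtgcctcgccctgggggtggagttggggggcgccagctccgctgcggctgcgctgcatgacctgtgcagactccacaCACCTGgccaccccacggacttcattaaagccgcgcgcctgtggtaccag

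All 8 promoters held CANNTG within these 250 bases, as did 66.2% of all 32851 RefSeq promoters, and 6 held at least 2 matches, against 31.8% of all promoters. *Zp3* had 3 of them, of which CACGTG began 181 bases before the start. That palindrome was present in 6.02% of all promoters. *Oosp1* had the most, with 5. TAATTA was found for *Bmp15* and for the first promoter of *Nlrp5* (4.84% of all promoters held it), and TAATTG, read on the opposite strand, for *Ooep* (7.17%). Both strands were searched. CANNTG and TAATTA are their own reverse complements, and CANNTG and TAATTG can share a match in overlapping letters. A match is a description of the letters, not of a bound site.

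The zona genes were expressed in the ovary and were at or near 0 in other tissues. Levels are given as FPKM, the CPM per kilobase of exon, which allows genes to be compared. *Zp2*, which encodes the zona protein to which sperm bind, was at 2.57, 4.72 and 5.74 FPKM in ovary replicates 1, 2 and 3 (126, 320 and 439 counts). *Zp3*, whose product pairs with ZP2 in the zona filaments, was at 0.838, 4.59 and 4.82 FPKM (20, 151 and 179 counts). *Zp1*, whose product cross-links the filaments, was at 0.364, 2.49 and 2.14 FPKM (13, 123 and 119 counts). Replicate 1 was the lowest library for all 3 genes, and the ovary libraries of each gene still lay above the other 26 libraries, as was so for 8.31% of the 29911 genes tested. The mean levels were 4.34 ± 1.62, 3.41 ± 2.23 and 1.67 ± 1.14 FPKM (SD, n = 3) for *Zp2*, *Zp3* and *Zp1*, with every *Zp2* library above every *Zp1* library and the *Zp3* libraries overlapping both.

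Outside the ovary, *Zp2* had its next highest level in colon, with 0.259 ± 0.171 FPKM (SD, n = 6) and 0 to 22 counts per library. Heart followed with 0.150 ± 0.0834 FPKM (SD, n = 5) and 3 to 16 counts, and the colon and heart libraries overlapped. All 5 heart libraries lay above all brain libraries for this gene. *Zp3* was highest after ovary in cerebellum (0.0952 ± 0.0785 FPKM, SD, n = 6, with at most 6 counts in a library) and had no count in any heart library, which allows up to 0.116 FPKM at 3 counts in the shallowest. *Zp1* likewise had no heart count and reached its next highest level in brain, at 0.0579 ± 0.0437 FPKM (SD, n = 6) and at most 10 counts.

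*Bmp15* was at 0.706, 3.36 and 4.52 FPKM in ovary replicates 1, 2 and 3 (39, 256 and 389 counts). Replicate 1 was again the lowest, and it lay above the highest other library, a brain library at 0.445 FPKM, by a factor of 1.59. Brain held 0.246 ± 0.163 FPKM (SD, n = 6, 3 to 38 counts) and cerebellum 0.188 ± 0.112 FPKM (SD, n = 6, 5 to 26 counts), and these overlapped. Every brain and cerebellum library thus had counts on *Bmp15*, whereas none of the 6 colon libraries had any, which allows up to 0.0834 FPKM.

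The genes of the subcortical maternal complex differed in where else they were counted. *Nlrp5* was at 2.67, 3.73 and 5.07 FPKM in ovary replicates 1, 2 and 3 (173, 334 and 512 counts). In testis it was at 0.655, 0.665 and 0.994 FPKM (67, 74 and 110 counts). The testis libraries lay below all ovary libraries and above all somatic libraries, of which the highest was a brain library at 0.0456 FPKM and 14 of 23 had no count. *Ooep* was at 7.68, 6.29 and 5.33 FPKM in ovary (296, 335 and 320 counts), the highest mean of the genes other than *Gdf9*, at 6.43 ± 1.18 FPKM (SD, n = 3). Replicate 1 was here the highest ovary library. Colon was next with 0.878 ± 0.449 FPKM (SD, n = 6, 12 to 57 counts), then cerebellum with 0.435 ± 0.237 and brain with 0.213 ± 0.128 FPKM (SD, n = 6 each), and each of these overlapped its neighbor in the order. Counts of *Ooep* were found in 21 of the 23 somatic libraries, more than for any other gene of the 10 except *Gdf9*, and testis held only 2, 0 and 6.

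*Nobox* was at 1.35, 2.90 and 2.41 FPKM in ovary replicates 1, 2 and 3 (49, 145 and 136 counts). Its lowest ovary library was 11.6 times the highest other library, the widest gap of the 10 genes. *Figla* was at 1.19, 0.817 and 1.15 FPKM in ovary (18, 17 and 27 counts) and at 0.799, 0.541 and 0.661 FPKM in testis (19, 14 and 17 counts). The ovary libraries lay above the testis libraries by a factor of only 1.02 at the nearest pair, which is within counting error. No count of *Figla* fell in cerebellum, heart or colon, and brain had 5 in 6 libraries. *Oosp1* was at 0.913, 4.21 and 3.19 FPKM in ovary (16, 102 and 87 counts), with replicate 1 the lowest, and had no count in testis or cerebellum. Of its 17 somatic counts, 10 fell in female heart replicate 3, the library with the high fat and luteal markers, which also held all 4 heart counts of *Nobox* and 8 of the 11 heart counts of *Bmp15*. The part of fat, ovarian or other tissue in these counts was not tested.

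Thus 9 of the 10 genes had 3 ovary libraries above all 26 others, which held for 8.31% of all genes tested. The exception was the *Gdf9* locus, whose counts cannot be told apart from those of an overlapping gene, as described last. By edgeR's quasi-likelihood test, with adjustment by Benjamini-Hochberg over the genes tested, 9 members rose in ovary relative to the mean of the 8 somatic groups, where 24.0% of all genes were called higher, and 1 was lower, where 19.0% were. Total-count scaling moved the median of all genes by 0.389 on the log2 scale and the share of higher calls among all calls from 55.8% to 77.4%, and DESeq2 gave 45.1%. The direction of none of the 10 genes changed under either.

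**Figure D1:**
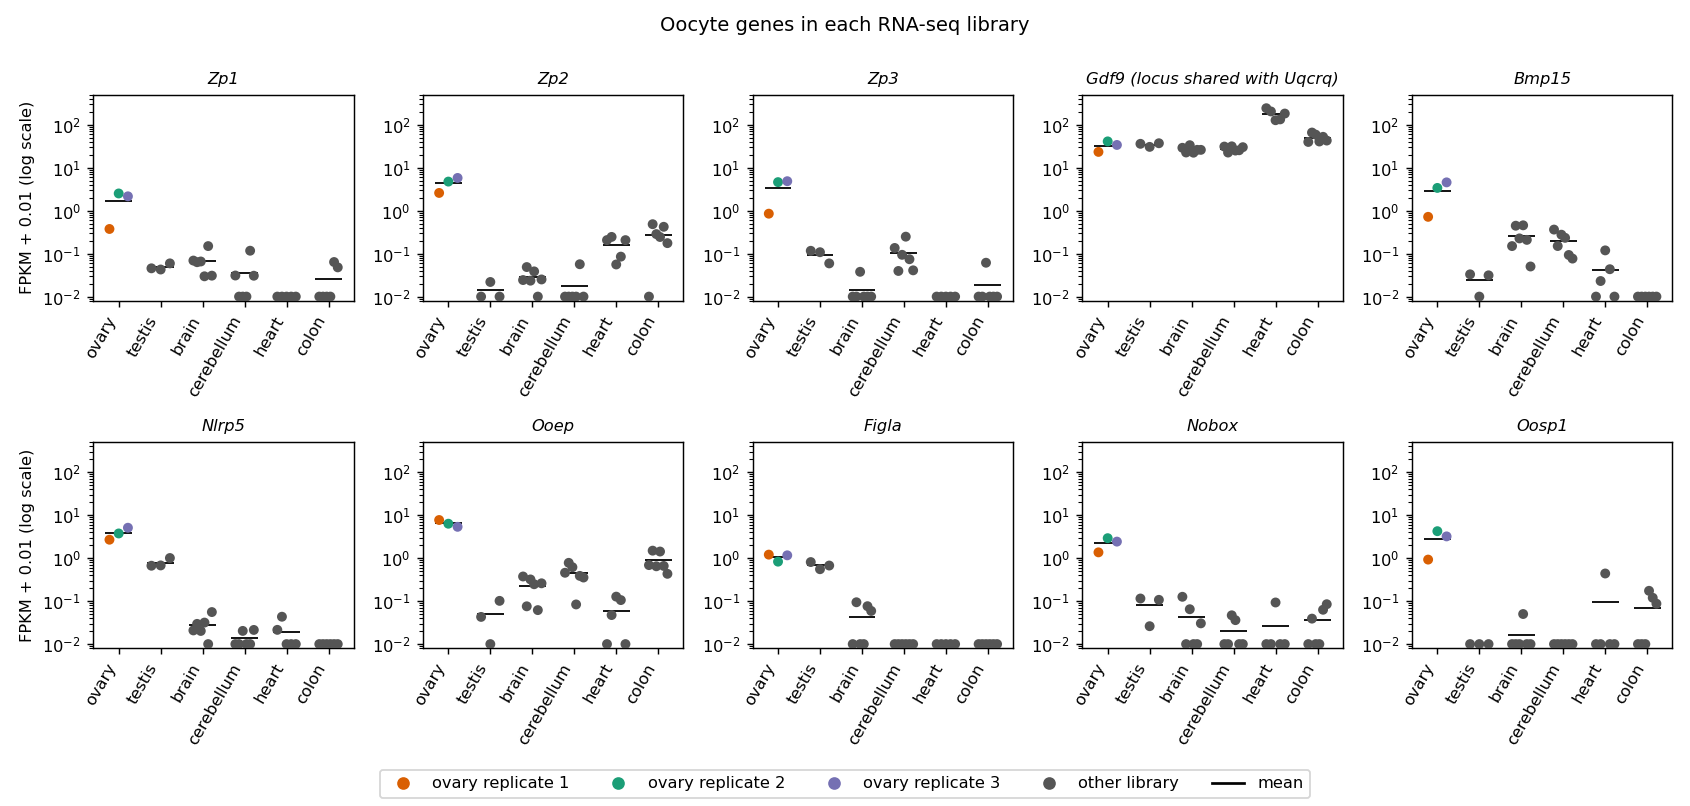
Level of each of the 10 genes in every library, as FPKM plus 0.01 on a log scale, by tissue with both sexes together. Points are libraries, colors mark the ovary replicates, and lines are means. For 9 genes the 3 ovary libraries lie above the 26 others. For the *Gdf9* locus, which shares exon bases with *Uqcrq*, the heart libraries are the highest.

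The ratio of the mean ovary CPM to the mean of the 8 somatic group means was largest for *Nlrp5*, at 527-fold, with an edgeR log2 difference of 9.11 ± 0.41 (SE, adjusted p = 2e-13). *Figla* and *Zp3* followed at 127-fold and 126-fold, with log2 differences of 6.29 ± 0.59 (adjusted p = 4.29e-07) and 7.73 ± 0.53 (adjusted p = 6.07e-10). The ratio was 108-fold for *Nobox*, 81.3-fold for *Oosp1*, 68.1-fold for *Zp1* and 40.1-fold for *Zp2*, with edgeR adjusted p of 1.67e-10, 3.92e-07, 4.69e-09 and 1.15e-10. The smallest were 24.8-fold for *Bmp15* (adjusted p = 7.85e-09) and 16.3-fold for *Ooep* (adjusted p = 8.85e-10), which apart from *Gdf9* were the genes with the most somatic counts. The median log2 ratio was 6.22 over the 10 genes, 6.34 without *Gdf9* and 0.24 over all genes tested. Fitted log2 differences of genes with 0 counts in several groups depend on the prior count of the fit. With DESeq2, *Oosp1* was no longer past the threshold, at an adjusted p of 0.079, whereas its adjusted p in edgeR was 5.68e-08 without female heart replicate 3. Without that library the ratio of means for *Oosp1* was 170.6-fold, and without female brain replicate 2, which held 2 counts of *Figla*, that of *Figla* was 219.7-fold.

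**Figure D2:**
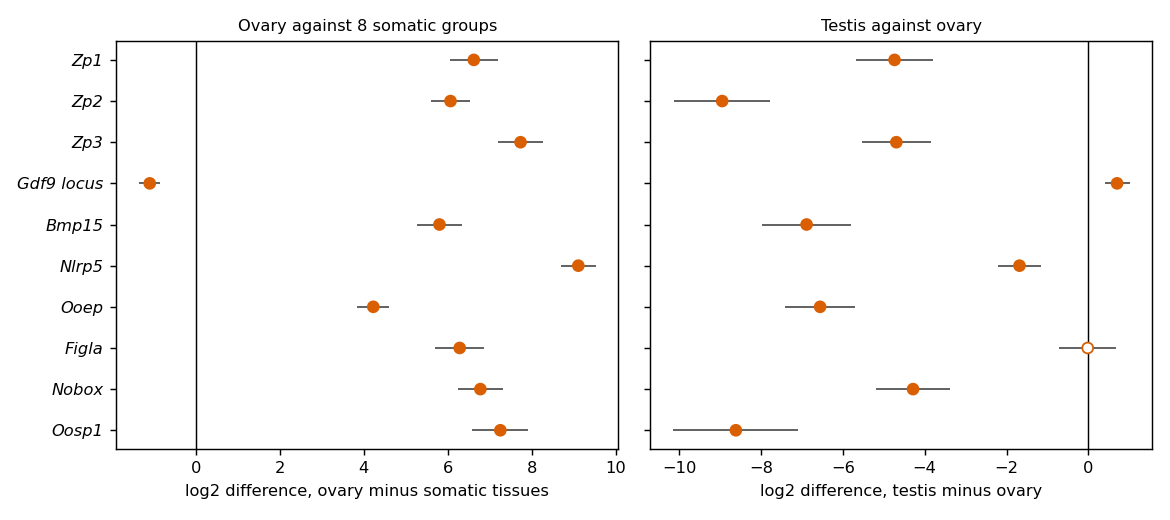
Differences of the 10 genes in edgeR's fit, as log2 of ovary minus somatic tissues (left) and of testis minus ovary (right). Points are estimates with standard errors, filled where the adjusted p was under 0.05. Except for the *Gdf9* locus, the genes lie between 4.23 and 9.11 on the left, and *Figla* is at -0.02 on the right.

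The comparison of the gonads asked whether the genes differ between the tissues that hold female and male germ cells. In edgeR's test, 8 of the 10 members were lower in testis than in ovary, where 26.5% of all genes were called lower and 37.8% higher. All 3 zona genes fell in testis, where they had 7 counts (*Zp1*), 1 count (*Zp2*) and 10 counts (*Zp3*) in 3 libraries together. The edgeR adjusted p was 0.000178 for *Zp1*, 5.75e-07 for *Zp2* and 7.84e-05 for *Zp3*. *Bmp15* had 4 testis counts and a mean ovary CPM 194-fold that of testis (adjusted p = 9.98e-06 in edgeR). *Ooep* was 156-fold (adjusted p = 3.08e-07) and *Nobox* 30.5-fold higher in ovary (adjusted p = 0.000191). Testis replicate 3 held 6 of the 8 testis counts of *Ooep*, and without it the ratio was 391.5-fold. *Oosp1*, with no testis count, was at least 25.6-fold higher in ovary when 3 counts are set for each testis library (adjusted p = 0.000183 in edgeR and 0.121 in DESeq2).

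*Nlrp5* had the smallest difference of these, 4.95-fold in mean CPM, with a log2 difference of -1.68 ± 0.52 (SE) and an adjusted p of 0.00775 in edgeR. This call was lost without ovary replicate 3, at a log2 difference of -1.40 and an adjusted p of 0.053. *Figla* was not called, with a log2 difference of -0.02 ± 0.69 (SE, edgeR adjusted p = 1), which is -0.65 under total-count scaling (adjusted p = 0.424). The TMM factors behind this change were 1.45, 1.30 and 1.30 in ovary and 0.856 to 0.874 in testis. For 9 of the 10 genes the CPM of the ovary libraries lay above that of the testis libraries, which held for 41.4% of all genes tested. The median log2 ratio of ovary to testis was at least 5.14 for the 10 genes and at least 5.34 without *Gdf9*, with *Oosp1* at its bound. It was 0.49 for all genes.

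Against the somatic tissues, 4 members were called higher in testis, where 40.7% of all genes were, and 1 was called lower, where 26.6% were. *Nlrp5* was at 106-fold the mean somatic CPM (log2 difference 7.43 ± 0.45, edgeR adjusted p = 3.29e-12) and *Figla* at 80.4-fold (6.27 ± 0.59, adjusted p = 1.78e-07), or 139-fold without female brain replicate 2. Both had all testis libraries above the 23 somatic libraries, which held for 25.3% of all genes. The calls of *Zp3* (3.11-fold, edgeR adjusted p = 0.00237) and *Nobox* (3.53-fold, adjusted p = 0.00938) rested on 10 and 13 testis counts, and their testis libraries overlapped those of cerebellum and of brain. *Nobox* was no longer past the threshold without testis replicate 1 (adjusted p = 0.063) or testis replicate 3 (adjusted p = 0.058). *Ooep* was lower in testis (log2 difference -2.33 ± 0.76, edgeR adjusted p = 0.00871, and 0.0749 without testis replicate 2). *Zp1*, *Zp2*, *Bmp15*, *Oosp1* and *Gdf9* were not called. Of these, *Zp2* was called lower in DESeq2 (adjusted p = 0.0318) and against the male somatic groups alone (0.0482 in edgeR), and *Gdf9* was called lower under total-count scaling (0.0112), with every gene of at least 1 count kept (0.0295) and without female heart replicate 3 (0.0339). *Zp1* was called higher in 3 of 11 alternatives, which were RLE scaling (0.0443), a minimum of 10 counts in 3 libraries (0.0485) and the replicate block (0.0314).

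Within the ovary, the libraries differed in most of these genes at once. The ratio of replicate 1 to replicates 2 and 3 together, in CPM, is given with a 95% interval (exact binomial, which covers counting error only). It was 0.158 (0.0828 to 0.275) for *Zp1*, 0.178 (0.107 to 0.279) for *Zp3*, 0.178 (0.125 to 0.245) for *Bmp15* and 0.249 (0.139 to 0.414) for *Oosp1*. These 4 genes were at or below 0.25, as were 1.60% of 20025 genes with at least 30 ovary counts. *Zp2* followed at 0.488 (0.401 to 0.589), *Nobox* at 0.512 (0.370 to 0.696) and *Nlrp5* at 0.601 (0.507 to 0.708). In all, 5 of the 10 genes were at or below 0.5, as were 5.46% of all genes. The median of all genes was 1.02.

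*Figla* and *Ooep* did not share this. *Ooep* was at 1.33 (1.15 to 1.53) and *Figla*, with few counts, at 1.20 (0.654 to 2.12). The make-up of the 9 genes other than *Gdf9* differed between libraries. *Ooep* took 39.5% of their 750 counts in replicate 1, against 18.8% of 1783 in replicate 2 and 14.5% of 2208 in replicate 3. *Bmp15* took 5.2%, 14.4% and 17.6% of the same totals. Without replicate 1, the mean ovary level rose to 2.32 FPKM for *Zp1*, 4.70 for *Zp3*, 3.94 for *Bmp15* and 3.70 for *Oosp1*, and was 5.81 for *Ooep*. The calls of the 9 genes against the somatic tissues held without any 1 of the 3 ovary libraries.

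Replicates 2 and 3 were closer to each other. The direct ratio of replicate 2 to replicate 3, in CPM, had an interval that left out 1 for 4 of the 9 genes other than *Gdf9*. It was 0.742 (0.631 to 0.871) for *Bmp15*, 0.736 (0.639 to 0.846) for *Nlrp5*, 0.822 (0.710 to 0.952) for *Zp2* and 1.18 (1.01 to 1.38) for *Ooep*. The ratios of *Zp1*, *Zp3*, *Nobox*, *Oosp1* and *Figla* were within counting error, among them 1.32 (0.984 to 1.78) for *Oosp1* and 1.17 (0.899 to 1.51) for *Zp1*.

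Other oocyte genes gave the same kind of spread in replicate 1. Of the 15 further genes of the maternal complex and maternal factors, 10 were at or below 0.5 of the other libraries, with a median of 0.362. *Padi6*, a maternal complex protein of the oocyte lattices, was at 0.219 (0.184 to 0.258). *Dppa3*, a maternal factor that protects DNA methylation after fertilization, was at 1.55 (1.29 to 1.85), above the other libraries as *Ooep* was. Of 14 genes of oocyte gene clusters, 13 were at or below 0.5, with a median of 0.293, whereas the 6 further oocyte transcription factors and cofactors had a median of 1.10 and 1 at or below 0.5. The 8 germ cell genes of both sexes had a median of 1.14 and 0 at or below 0.5.

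Markers of the follicle and of fat also moved between these libraries. *Amh*, the hormone of granulosa cells of growing follicles, was at 0.253 (0.209 to 0.303) and *Fshr*, the receptor for follicle-stimulating hormone, at 0.440 (0.347 to 0.552), whereas *Inhba*, an activin subunit, was at 2.26 (2.16 to 2.36). The 7 granulosa markers ran from 0.253 to 2.26 with a median of 0.713. Their sum was 811.7, 1122 and 826.8 CPM in replicates 1, 2 and 3. The 6 luteal markers had a median of 0.807, with *Akr1c18*, an enzyme that breaks down progesterone, at 2.05 (1.97 to 2.12), and their sum was 6615, 7725 and 8755 CPM. All 4 fat markers were at or below 0.5, with a median of 0.0758. The part of these cell types in the levels of the oocyte genes was not tested.

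**Figure D3:**
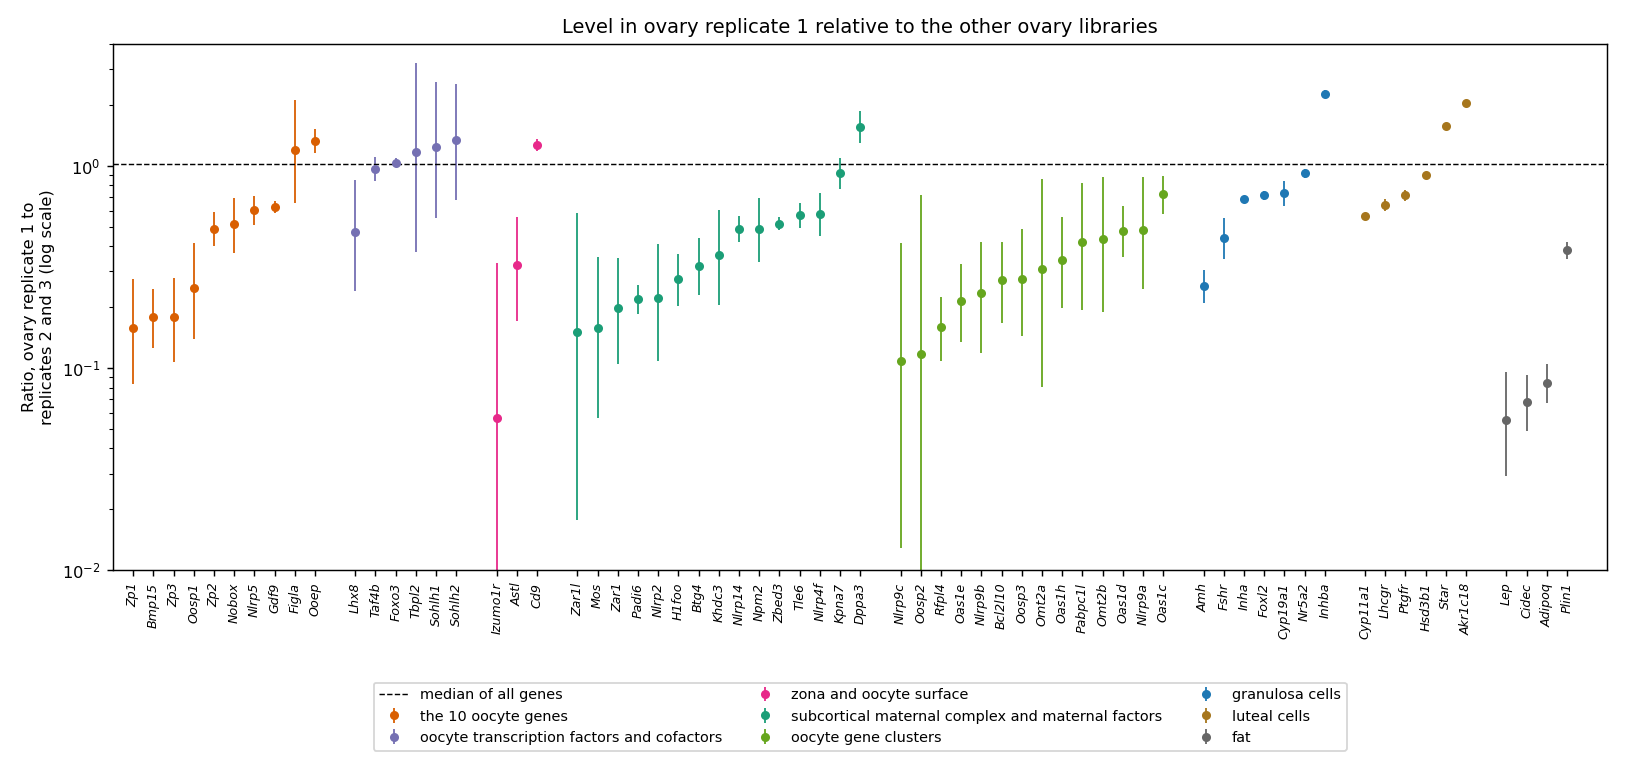
Ratio of the CPM in ovary replicate 1 to that in replicates 2 and 3 together, on a log scale, for the 10 genes and for 7 lists of other genes. Points are genes with at least 1 count in replicate 1, bars are 95% exact counting intervals, and the dashed line is the median of all genes, 1.02. *Figla* and *Ooep* lie above the line and the other 8 genes below it.

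The *Gdf9* locus held far more counts than the other genes, in every tissue. It was at 23.2, 40.7 and 33.6 FPKM in ovary replicates 1, 2 and 3 (990, 2399 and 2236 counts), but at 177 ± 48.1 FPKM in heart (SD, n = 5, 6136 to 13853 counts) and 49.7 ± 10.7 FPKM in colon (SD, n = 6). The heart libraries lay above all ovary libraries, whereas colon, testis, cerebellum and brain, the last 3 with means of 34.3, 27.4 and 26.4 FPKM, had libraries that overlapped those of ovary. In edgeR's test the locus was lower in ovary than in the somatic tissues (log2 difference -1.10 ± 0.25, SE, adjusted p = 0.000843), the opposite of the other 9 genes. It was called higher in testis than in ovary at 0.70 ± 0.31 (adjusted p = 0.0489), although the mean CPM was 81.2 in testis and 77.0 in ovary. This call was lost in 6 of 13 alternatives, among them leaving out ovary replicate 1 (0.47, adjusted p = 0.225) or 3 (0.74, adjusted p = 0.0755) or testis replicate 1 (0.68, adjusted p = 0.0934) or 3 (0.64, adjusted p = 0.114).

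*Uqcrq*, which encodes a subunit of mitochondrial complex III, lies on the opposite strand at chr11:53428953-53430815. Its exons share 280 bases with the first exon of the longest Iso-seq transcript of *Gdf9*, which are 58.6% of the exon bases of *Uqcrq* and 11.8% of those of the *Gdf9* locus. That first exon runs from 53430530 to 53431052 and covers 523 bases, and the other 2 *Gdf9* transcripts start downstream of the shared bases. The libraries were stranded, but the sources used here do not say how the counting treated strand, so reads of the 2 genes in these bases cannot be told apart.

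**Figure D4:**
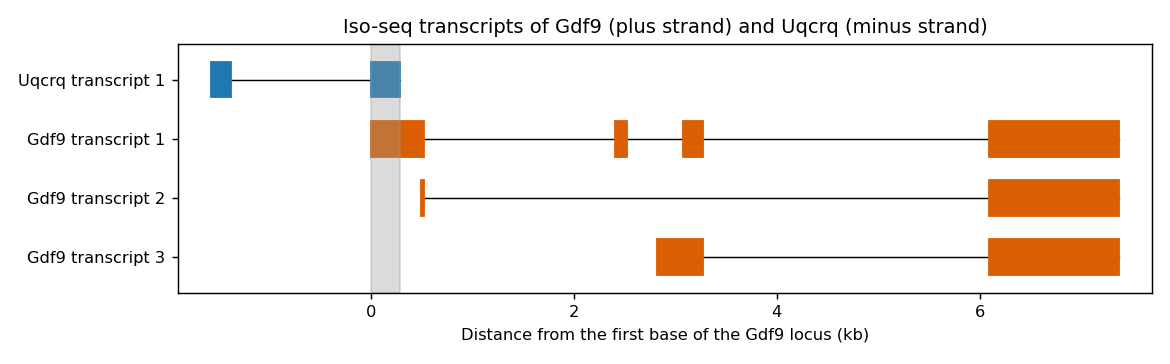
Iso-seq transcripts of *Uqcrq* (blue, minus strand) and *Gdf9* (orange, plus strand) by distance in kb from the first base of the *Gdf9* locus. Boxes are exons, lines are introns, and the gray band marks the 280 shared exon bases, which fall in 1 of the 3 *Gdf9* transcripts.

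The counts of the *Gdf9* locus were set against those of *Uqcrq* in each library. In the 26 libraries other than ovary, the ratio ran from 0.656 to 0.867 with a median of 0.780, although *Uqcrq* itself ranged from 1340 to 21117 counts. In ovary the ratio was 0.793, 1.22 and 1.08 in replicates 1, 2 and 3, so replicates 2 and 3 lay above all other libraries and replicate 1 lay among them. The mean was 1.03 ± 0.217 (SD, n = 3) in ovary and 0.782 ± 0.0513 (SD, n = 26) elsewhere. The difference was 0.2495 (exact permutation test over libraries, two-sided p = 0.00657). That test takes all libraries as exchangeable, although libraries of the same tissue may be alike. Its p therefore does not measure a difference between tissues. Without replicate 1 the difference was 0.369 (p = 0.00529), whereas it was 0.157 without replicate 2 and 0.223 without replicate 3 (exact permutation p = 0.0635 for each). At the pooled ratio of the other libraries, 0.758, the *Uqcrq* counts correspond to 947, 1495 and 1563 counts on the *Gdf9* locus in ovary, and the counts above that were 42.9, 904 and 673. These are 2.38, 36.3 and 24.0 CPM. Over the range of ratios in the other libraries, the counts above those expected ran from -92.5 to 170.6 in replicate 1, which includes 0, from 690.8 to 1106 in replicate 2 and from 449.8 to 884 in replicate 3. A value of this size was also found outside the ovary, where male heart replicate 2, with 10636 *Uqcrq* counts, was at 765.1 counts or 37.1 CPM above the pooled ratio, with a range of -387.9 to 1853 counts. The ratio was chosen after the data were seen.

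**Figure D5:**
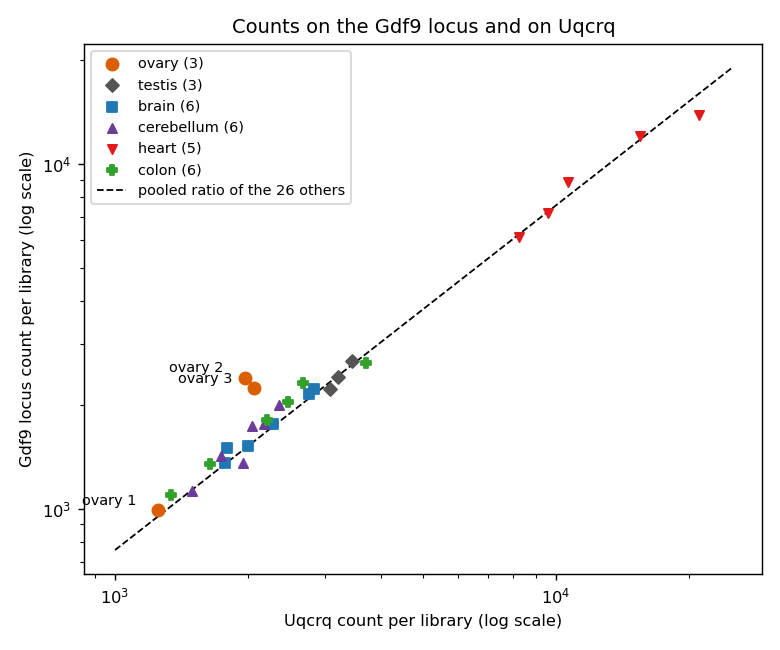
Counts on the *Gdf9* locus against counts on *Uqcrq* in each of the 29 libraries, both on log scales, with the pooled ratio of the 26 libraries other than ovary, 0.758, as a dashed line. Ovary replicates 2 and 3 lie above the line and ovary replicate 1 close to it.

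Genes that act with the 10 genes were read from lists, and the counts called stand beside these shares of all genes tested. In ovary against somatic tissues, 24.0% were called higher and 19.0% lower. In testis against ovary, 37.8% were called higher and 26.5% lower. Among 6 further oocyte transcription factors and cofactors, 5 were tested, of which 4 were higher in ovary than in somatic tissues and 1 lower. *Sohlh1*, a basic helix-loop-helix factor of germ cells (0.421 ± 0.233 FPKM in ovary, SD, n = 3), rose by 5.35 ± 0.67 and *Lhx8*, a homeodomain factor (0.497 ± 0.184 FPKM), by 2.88 ± 0.60 on the log2 scale (edgeR adjusted p = 4.32e-06 and 0.000276). The mean CPM of *Sohlh1* was 53.4-fold that of the somatic tissues, whereas that of *Lhx8* was only 1.58-fold (1.26 against 0.797 CPM), with brain above ovary at 2.99 CPM. *Taf4b*, a TFIID subunit of germ cells, rose by 0.90 ± 0.16 (adjusted p = 4.9e-05). *Foxo3*, which holds primordial follicles dormant and is expressed in many tissues, was lower by a log2 difference of -0.65 ± 0.13 (adjusted p = 0.000202) at 15.3 ± 0.328 FPKM, a call lost under total-count scaling (-0.17, adjusted p = 0.217). In testis against ovary, 3 of these 5 genes were higher, *Sohlh1* among them (1.99 ± 0.75, adjusted p = 0.0285). The *Sohlh1* call was lost in 8 of 13 alternatives, with edgeR adjusted p of 0.0594 without ovary replicate 1, 0.106 without ovary replicate 3 and 0.0566, 0.0568 and 0.067 without testis replicate 1, 2 or 3, and 0.0873 in DESeq2.

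Of the genes of the oocyte surface, *Astl*, the protease that cleaves ZP2 after fertilization, rose in ovary by 6.70 ± 0.63 (edgeR adjusted p = 5.2e-08) at 0.734 ± 0.387 FPKM (SD, n = 3). *Izumo1r*, the sperm receptor JUNO, was called higher by 3.40 ± 0.93 (adjusted p = 0.00524) at 0.286 ± 0.25 FPKM, but not in DESeq2 (adjusted p = 0.0938) or without ovary replicate 3 (0.0702 in edgeR). *Cd9*, a tetraspanin needed for sperm fusion that many cells make, was not called, with a log2 difference of -0.38 ± 0.17 (adjusted p = 0.0791, and 0.0193 in DESeq2) at 55.5 ± 7.89 FPKM. All 3 were lower in testis than in ovary. *Zp4-ps*, the pseudogene of the fourth zona gene, was not tested, with a mean of 0.0657 FPKM in ovary and 0 in testis.

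In ovary against somatic tissues, 24.0% of all genes were called higher and 19.0% lower. Of the 12 receptors, signal carriers and targets of GDF9 and BMP15, 6 were called higher there, 2 lower and 4 not called. The number called higher ranged from 4 to 9 over the alternatives, with 9 under total-count scaling, where *Furin*, a protease that processes precursors of this family, and *Bmpr2* were also called (adjusted p = 0.000101 and 0.00788). One of the 6, *Grem1*, a cumulus gene for a BMP antagonist, was higher in the fit (log2 difference 3.15, edgeR adjusted p = 1.8e-07) but had a mean CPM of 17.8 in ovary and 20.2 in somatic tissues, with 76.7 CPM in colon. Its ovary counts were 189, 852 and 242 in replicates 1, 2 and 3, and replicate 2 was at 3.66 times the others in CPM. *Tgfbr1*, the type I receptor for GDF9, rose by 1.33 ± 0.13 (edgeR adjusted p = 7.04e-09) at 23.3 ± 3.55 FPKM (SD, n = 3). *Bmpr2*, the type II receptor that both factors use, was at 22.0 ± 12.9 FPKM and was not called (0.47 ± 0.26, adjusted p = 0.163). *Smad2* and *Smad3*, carriers of the GDF9 signal, were called at 0.24 ± 0.09 and 0.36 ± 0.14 (adjusted p = 0.0334 and 0.0428). The *Smad2* call was lost in 5 of 11 alternatives, among them without ovary replicate 2 (0.122) or 3 (0.274), and the *Smad3* call in 4 of 11, among them without ovary replicate 2 (0.199) or 3 (0.196). *Smad4*, the common partner, was not called (-0.10 ± 0.12, adjusted p = 0.631), and was at 0.38 under total-count scaling (adjusted p = 0.00753). The cumulus target genes *Ptgs2* and *Tnfaip6*, which rise around ovulation, were lower in ovary, with log2 differences of -4.83 ± 0.99 (adjusted p = 0.00024) and -2.47 ± 0.33 (adjusted p = 6.53e-07). Other cumulus genes of the list differed from these. *Ptx3*, a pentraxin of the cumulus matrix, was higher in ovary (4.23 ± 0.35, adjusted p = 1.83e-10, 20.2-fold in mean CPM), and *Has2*, which makes hyaluronan, was not called (-0.19 ± 0.51, adjusted p = 0.923). In testis against ovary, 9 of the 12 were lower and 2, again *Ptgs2* and *Tnfaip6*, were higher, and for *Ptgs2* without testis replicate 1 the difference was 1.48 (adjusted p = 0.0631). The call of *Tnfaip6* was lost under total-count scaling (0.85, adjusted p = 0.0666).

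Of 15 maternal complex and maternal factor genes, 14 were higher in ovary than in somatic tissues and 1, *Kpna7*, an importin of oocytes that shares exon bases with *Arpc1a*, was not called (0.20 ± 0.19, edgeR adjusted p = 0.47). Over the alternatives 13 to 15 were higher, with *Kpna7* called under total-count scaling (adjusted p = 0.00703) and *Nlrp2* not called in DESeq2 (0.199). *Zbed3* was at 28.7 ± 9.73 FPKM (SD, n = 3), *Padi6* at 11.2 ± 7.01, *Dppa3* at 9.52 ± 2.59 and *H1foo*, the oocyte linker histone, at 7.31 ± 4.16 FPKM. Their log2 differences were 2.19 ± 0.15, 9.78 ± 0.46, 8.17 ± 0.49 and 8.80 ± 0.58 (adjusted p = 3.22e-12, 2.8e-12, 1.18e-09 and 3.59e-10). Testis was lower for 9, higher for 2 and not called for 4. *Nlrp14* and *Btg4* were the 2 that were higher in testis, at 33.8 ± 2.44 against 5.67 ± 2.08 FPKM and at 4.81 ± 0.795 against 2.33 ± 1.31 FPKM (adjusted p = 3.68e-07 and 0.0128). The call of *Btg4* was lost under total-count scaling (1.04, adjusted p = 0.117) and without ovary replicate 1 (1.26, adjusted p = 0.0657). *Npm2*, a histone chaperone of the egg, was called higher in testis in DESeq2 (adjusted p = 0.0237) and in a fit of the 6 gonad libraries alone (0.0279). Of the 9 lower genes, *Tle6* and *Khdc3*, which are both parts of the maternal complex, lost the call in 7 and 8 of 13 alternatives, and DESeq2 called 6 lower.

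All 13 tested genes of oocyte gene clusters were called higher in ovary than in somatic tissues by edgeR, and 11 were lower in testis. In DESeq2, 8 were higher in ovary and 5 (*Oosp3*, *Nlrp9a*, *Nlrp9c*, *Omt2a* and *Omt2b*) were not called, and only 5 were lower in testis, since these 5 and *Rfpl4* lost that call. *Nlrp9b*, a member of the same family as *Nlrp5*, was higher in the fit, which averages the 8 somatic groups on the log scale (log2 difference 4.95, edgeR adjusted p = 1.58e-05), but its mean CPM was 2.10 in ovary and 4.78 in somatic tissues. Its somatic counts lay in colon, with 112 to 637 counts per library and a mean of 19.1 CPM, apart from 4 counts in cerebellum. The summed level of the 14 genes was 18.1, 55.6 and 48.5 CPM in ovary replicates 1, 2 and 3 and 10.5 to 58.2 CPM in colon, so the summed levels of these tissues overlapped. *Rfpl4*, an oocyte RING-type protein, was at 5.00 ± 3.38 FPKM (SD, n = 3) with a log2 difference of 9.05 ± 0.58 (edgeR adjusted p = 2.15e-10). Next were *Oas1c* at 3.12 ± 0.71, *Oas1d* at 2.78 ± 1.15 and *Bcl2l10* at 2.74 ± 1.55 FPKM. Reads of close paralogs in the *Oas1*, *Nlrp* and *Oosp* families may be split or lost in counting, so their levels are uncertain. Germ cell genes of both sexes gave the opposite order of the gonads. Of 8, 7 were higher in testis than in ovary, among them *Mael*, a piRNA pathway gene, at 494 ± 32.8 against 1.33 ± 0.368 FPKM and *Dazl*, an RNA-binding protein of germ cells, at 23.9 ± 4.71 against 0.880 ± 0.161 FPKM (adjusted p = 4.45e-14 and 9.74e-10). *Sycp3*, a meiotic chromosome protein whose exons share bases with *Chpt1*, was at 60.7 ± 10.1 against 5.89 ± 3.69 FPKM (adjusted p = 1.18e-08). *Kit*, the receptor of oocytes and spermatogonia, was not called (0.50 ± 0.25, adjusted p = 0.0843), but was higher in testis in 4 of 13 alternatives, which were DESeq2 (adjusted p = 0.014), RLE scaling in edgeR (0.0209), without ovary replicate 3 (0.0289) and the fit of the gonad libraries alone (0.047), and was at -0.14 under total-count scaling (adjusted p = 0.714).

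The median log2 ratio of mean CPM in ovary over somatic tissues was 3.54 for the transcription factors, 2.23 for the surface genes, 0.64 for the receptors, carriers and targets, at least 5.08 for the maternal genes, at least 2.62 for the gene clusters and 0.91 for the germ cell genes, against 0.24 for all genes tested. Over testis, the medians were 0.31, at least 2.75, 2.04, 1.58, at least 4.17 and -4.54, against 0.49 for all genes. Genes with no count in a group were set at 3 counts per library, so a median is a lower bound where such a gene lay at or below the middle of its list, as for the gene clusters in both comparisons, the maternal genes over somatic tissues and the surface genes over testis. No order of the gene clusters and the transcription factors over somatic tissues is read from these values, since the fitted medians, which depend on the prior count for such genes, were 6.74 and 2.88. For the transcription factors the fitted median of testis minus ovary was 1.18, the opposite direction. That median is TMM-scaled and leaves out *Tbpl2*, which was not tested.

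The genes whose levels across the 29 libraries were most like those of the 10 genes were sought among 16288 genes with a mean ovary CPM of at least 1. The closest was *Tcl1*, a maternal cofactor of AKT (Pearson's r = 0.982), followed by *Gm13084* (0.981), *Obox2* (0.980), *Gm13103* (0.980), *Oosp3* (0.979), *Obox1* (0.979), *Oog3* (0.977), *Gm13023* (0.977), *Nlrp2* (0.975) and *Gm10436* (0.974). *Obox1* and *Obox2* are oocyte homeobox genes. These r values are descriptions, since the points share libraries and tissue. *Tcl1* was at 0.613, 5.21 and 3.82 TMM-scaled CPM in ovary replicates 1, 2 and 3 and at most 0.121 elsewhere, and the other 9 genes had no count outside the ovary. Without *Gdf9* in the profile, 9 of the 10 genes stayed and *Nlrp4b* took the place of *Gm10436*.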

How the data were processed

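RNA-seq was measured in 29 libraries of 10 groups. Raw counts per gene, deposited by the authors as whole numbers, were made on a combined Iso-seq and ENSEMBL annotation. The submitters' processing notes name HISAT2 2.0.5, featureCounts 1.6.3, FastQC 0.11.8, MultiQC 0.9 and mm10, and by the methods reads that mapped to several places were dropped. How the counting treated strand is not given in the sources used here. Besides *Gdf9*, several list genes share exon bases with another gene, so their levels may hold reads of both. Among them are *Star*, *Ptgfr*, *Insl3* (with *B3gnt3*), *Srd5a1* (with *Nsun2* and *Gm17108*), *Cd9* (with *Gm26728*), *Has2* (with *Has2os*), *Oas1c* (with *Gm43069*), *Kpna7* and *Sycp3*. The deposited annotation on GRCm38.p6 and the deposited map of ENSEMBL genes to Iso-seq loci gave loci and exon lengths. Of the per-sample columns, 29 were used and 0 others were present.

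CPM and FPKM (CPM per kilobase of the union of exons) were computed from total counts. Group differences were tested with edgeR 4.0.16 (quasi-likelihood, TMM, one fit over 29 libraries, low-count filter by group, 29911 genes, all 10 members included) with Benjamini-Hochberg adjustment over these genes and a threshold of 0.05. DESeq2 1.42.0 was an alternative. R 4.3.3, Python 3.11.15 and scipy 1.17.1 were used. Counting intervals are exact at 95%, and 3 counts per library were the limit for a count of 0. They cover counting error only. Likeness was Pearson's r between the log2 CPM of a gene (prior count 2) and the mean profile of the members. The edgeR step was tried on simulated counts for ovary against somatic, testis against ovary and testis against somatic. It recovered 81%, 70% and 78% of 4-fold changes and 59%, 29% and 54% of 2-fold changes. Of the calls, 3.45%, 1.98% and 4.35% were false, with 27301, 27256 and 27360 genes tested. The simulation gave every unchanged gene the same mean in all libraries and changed 100 genes at each fold. It thus lacks the broad differences between tissues and the genes at 0 in whole groups found here.

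The members and lists were chosen with earlier results of these data known. In each list the text names up to 4 genes with the highest mean FPKM in ovary and those whose direction differed from the list. *Amh*, *Fshr*, *Inhba*, *Akr1c18*, *Nlrp9b*, *Grem1*, *Ptx3*, *Has2*, *Star*, *Ptgfr*, *Lhcgr*, *Foxl2*, *Cyp19a1*, *Furin*, *Smad3*, *Npm2*, *Tle6*, *Khdc3* and the cluster genes lost in DESeq2 were named after their values were seen. The alternatives of total-count scaling, leaving out female heart replicate 3, the ratio of *Gdf9* to *Uqcrq*, the profile without *Gdf9* and ratios of means without each library were added after seeing the data.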

Additional observations from a re-analysis of the deposited data

How the results depend on the processing

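The counts of members called (9 higher in ovary than in somatic tissues, 8 lower in testis than in ovary, 4 higher in testis than in somatic tissues) ranged from 8 to 9, 7 to 8 and 3 to 5 under the alternatives run, and leaving out 1 gonad library gave 9, 7 to 8 and 3 to 4. When 1 gonad library was left out, the number of all genes called was 11063 to 11503, 17443 to 18366 and 18339 to 18834, where it was 12849, 19232 and 20122 with all libraries. Without female heart replicate 3, 13600 and 20511 genes were called in the first and last of these. With the replicate block, 9, 8 and 5 members were called, and *Zp1* was then past the threshold in testis against somatic tissues (adjusted p = 0.0314 in edgeR). Over 126 pairs of libraries that share a number, the correlation of deviations ran from -0.259 to 0.155 with a median of -0.002, and 5 were above 0.1, so the numbers were not taken to pair libraries. The difference in the *Gdf9* to *Uqcrq* ratio ranged from 0.157 to 0.369 when 1 ovary library was left out, with exact permutation p of 0.0635 without replicate 2 (0.157) or replicate 3 (0.223). It was 0.246 against the 23 somatic libraries alone (exact permutation p = 0.00923). *Smad4* reversed to 0.378 in ovary against somatic tissues under total-count scaling, and *Ptgs2* ranged from -3.35 (without testis replicate 1) to 1.38 in testis against somatic tissues when 1 testis library was left out, where its main difference was 0.777. In DESeq2, 8 in place of 13 tested genes of oocyte gene clusters were higher in ovary than in somatic tissues and 5 in place of 11 were lower in testis than in ovary. The causes were not tested. The share of higher calls in testis against ovary moved from 58.8% to 44.1% under total-count scaling. Low counts limit *Figla* in every tissue and most other members outside the ovary, except *Gdf9* and, in testis, *Nlrp5*, and 2-fold changes were often missed on simulated counts.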
